A study of Mus musculus with 12 samples.

Results

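The myelin and oligodendrocyte lineage genes described here are 30 genes named by symbol, found in a table of 47069 annotated genes by their Ensembl identifier without its version. All 30 were present and all 30 had enough counts to be tested. The samples were bilateral frontal cortex of male C57BL/6 mice, labelled as prefrontal cortex, in 12 libraries made with an Illumina mRNA kit, 3 in each of 4 groups. Wild-type mice, or mice labelled HDAC2(loxP,loxP), CamKIIa-Cre(+,-), received vehicle or clozapine (10 mg/kg, labelled chronic), an antipsychotic drug that binds many monoamine receptors. For wild type the libraries are numbered 1, 3 and 4 with vehicle or 2, 3 and 5 with clozapine. For the labelled knockout they are numbered 2, 4 and 5 with vehicle or 3, 4 and 5 with clozapine, and values are listed in the order of these numbers. The labels give no ages and do not say whether the wild-type mice carry Cre or loxP alleles. They also do not say that the libraries come from separate animals, so p-values measure the spread between libraries, which may be technical. Total counts per library lay between 23408372 and 28069638. Hdac2, the targeted histone deacetylase gene, was at 63.4 to 75.7 CPM, counts scaled to a library of a fixed size, in the 6 wild-type libraries and at 70.5 to 76.6 CPM in the 6 labelled knockout libraries (log2 difference 0.03, SE 0.04, edgeR adjusted p = 0.65). A count taken over all exons cannot check the loss of a few of them, so the genotype is used as labelled.

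Oligodendrocytes wrap axons of the central nervous system in myelin, a compacted membrane rich in lipid and in a few abundant proteins. They arise from dividing precursor cells that carry the growth factor receptor PDGFRA and the proteoglycan NG2 (Cspg4), pass through a newly formed stage marked by Gpr17, Enpp6 and Bcas1, and then switch on myelin genes under the transcription factors SOX10, OLIG1, OLIG2, NKX6-2 and MYRF. The CamKIIa promoter drives Cre in excitatory forebrain neurons and is not directed to this lineage. By role the members were split into 20 mature genes (12 of myelin structure, 8 of mature enzymes and other products), 3 newly formed, 5 transcription factor and 2 precursor genes.

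Genes of every stage were detected. Per kilobase of exon, so that genes can be compared, Mbp, which encodes myelin basic protein, had the highest mean level over the 12 libraries at 86.8 CPM per kb. Olig1 followed at 47.6, the myelin enzyme gene Cnp at 44.6 and Enpp2, which encodes autotaxin, at 37.5 CPM per kb. The precursor genes Pdgfra and Cspg4 stood at 4.39 and 1.30, and Enpp6 was last at 0.286 CPM per kb. Markers of Schwann cells, which make the myelin of peripheral nerves, were at a summed 1.95 to 2.68 CPM in the 12 libraries, with Pmp2 at 0 in all of them. Exons of 11 members overlap those of another annotated gene, and whether the counting used strand is not stated. The widest overlap is in Trf, the transferrin gene, where 63.5% of exonic bases lie in exons of Gm20425 on the same strand. Gm20425 had 0 counts in every library and Trf 91 to 157, and how reads in the shared exons were counted is not stated, so the level of Trf is uncertain. Nkx6-2 shares 12.9% of its exonic bases with Inpp5a on the opposite strand. Inpp5a had 1381 to 1798 counts and Nkx6-2 had 162 to 251, so the level of Nkx6-2 is uncertain as well.

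Members passed the threshold between genotypes, and none did between treatments. Averaged over treatments, 5 of the 30 members fell and 1 rose in the labelled knockout in edgeR's quasi-likelihood test, with Benjamini-Hochberg adjusted p under 0.05 as the threshold. Over all 17286 genes tested 5.01% fell and 5.52% rose, 10.5% in all. The genes that fell were Ermn, Gjb1, Ugt8a, Myrf and Olig2, and the gene that rose was the precursor gene Pdgfra. In bulk tissue, fewer cells of a type and less RNA per cell cannot be told apart.

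Ermn (ENSMUSG00000026830.9, chromosome 2, 58045113 to 58052864, GRCm38) encodes ermin, a cytoskeletal protein of mature oligodendrocytes. Wild-type libraries had 21.9, 23.2 and 19.1 CPM after vehicle, and 25.7, 31.5 and 24.2 CPM after clozapine. Labelled knockout libraries had 20.4, 16.8 and 16.4 CPM after vehicle, and 13.4, 19.1 and 17.3 CPM after clozapine. The treated groups did not overlap, while under vehicle the highest knockout library lay above the lowest wild-type one. Averaged over treatments it fell by 28.5% (log2 difference -0.48, SE 0.10, 95% interval -0.69 to -0.28, edgeR adjusted p = 0.0072, n = 6 against 6).

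Gjb1 (chromosome X, 101376378 to 101385629) encodes connexin 32, a gap junction protein of oligodendrocytes. Its wild-type values were 6.92, 8.26 and 6.31 CPM (vehicle), then 9.71, 8.53 and 7.15 CPM (clozapine). Its labelled knockout values were 7.10, 6.10 and 5.92 CPM (vehicle), then 5.15, 5.08 and 6.21 CPM (clozapine). As with Ermn, only the groups given clozapine were fully separate. The averaged difference was a fall of 0.40 on the log2 scale, or -24.2% (SE 0.10, edgeR adjusted p = 0.015).

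Ugt8a (chromosome 3, 125865271 to 125938619) encodes the enzyme that makes galactosylceramide, a main lipid of myelin. The 3 wild-type vehicle libraries measured 21, 24.7 and 19.3 CPM, and the clozapine ones 21.1, 25.9 and 23.9 CPM. The 3 knockout vehicle libraries measured 19.5, 17.3 and 16.8 CPM, and the clozapine ones 14.6, 19.1 and 19.4 CPM. The genotypes overlapped only through wild-type vehicle 4, which lay just below knockout vehicle 2 and knockout clozapine 5. The averaged difference was -0.35 (SE 0.08, edgeR adjusted p = 0.015), a change of -21.5%.

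Myrf (chromosome 19, 10208272 to 10240748) encodes the factor that switches on myelin genes as oligodendrocytes mature. Wild-type vehicle libraries had 24.4, 31.2 and 23.6 CPM and wild-type clozapine libraries 34.0, 36.9 and 28.7 CPM. Knockout vehicle libraries had 24.2, 24.4 and 20.3 CPM, and knockout clozapine libraries 20.1, 25.6 and 23.8 CPM. The highest group was wild-type clozapine, fully above knockout clozapine, and the vehicle groups overlapped. Averaged over treatments the difference was -0.36 (SE 0.09, edgeR adjusted p = 0.021), and the call ended without wild-type clozapine 3 or without knockout clozapine 3 (adjusted p = 0.051 in each) and with no filter on low counts (adjusted p = 0.056).

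Olig2 (chromosome 16, 91225457 to 91228677) encodes a factor needed throughout the lineage. With vehicle, wild-type libraries had 24.9, 23.3 and 24.7 CPM and knockout libraries 19.8, 20 and 20.4 CPM. With clozapine, the former had 23.6, 23.4 and 20.7 CPM and the latter 21.8, 18.4 and 23.2 CPM. Here the separate groups were those given vehicle, and the treated groups overlapped. The averaged difference of -0.19 (SE 0.06, edgeR adjusted p = 0.046) was near the threshold and passed in 2 of the 12 fits that left out a library, those without wild-type clozapine 5 or knockout clozapine 5 (adjusted p 0.029 to 0.11 over the 12).

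Pdgfra (chromosome 5, 75152292 to 75198215) moved the other way. This receptor for platelet-derived growth factor keeps precursors dividing. With vehicle, it stood at 40.4, 38 and 40.1 CPM in wild-type libraries and at 50.5, 50.7 and 51 CPM in knockout libraries. With clozapine, the wild-type values were 42.1, 37.3 and 38.7 CPM and the knockout values 46.1, 42.8 and 50.3 CPM. All 6 knockout libraries lay above all 6 wild-type libraries, a separation upwards that 2.48% of all tested genes had. The difference was 0.30 on the log2 scale, a rise of 23% (SE 0.05, 95% interval 0.20 to 0.39, edgeR adjusted p = 0.00068), and it passed in all 12 fits that left out a library (highest adjusted p = 0.0032). Cspg4, the other precursor member, was at 13.2 to 19.2 CPM in wild type and 14.0 to 16.4 CPM in the labelled knockout (log2 difference -0.04, 95% interval -0.21 to 0.14, edgeR adjusted p = 0.84). With vehicle, its knockout libraries (15.8, 15.0 and 14.1 CPM) lay narrowly below the wild-type ones (16.3, 16.1 and 15.8 CPM). That log2 difference was -0.11 (edgeR adjusted p = 0.64), and 2443 of the 17286 genes tested were separate downwards there.

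**Figure D1:**
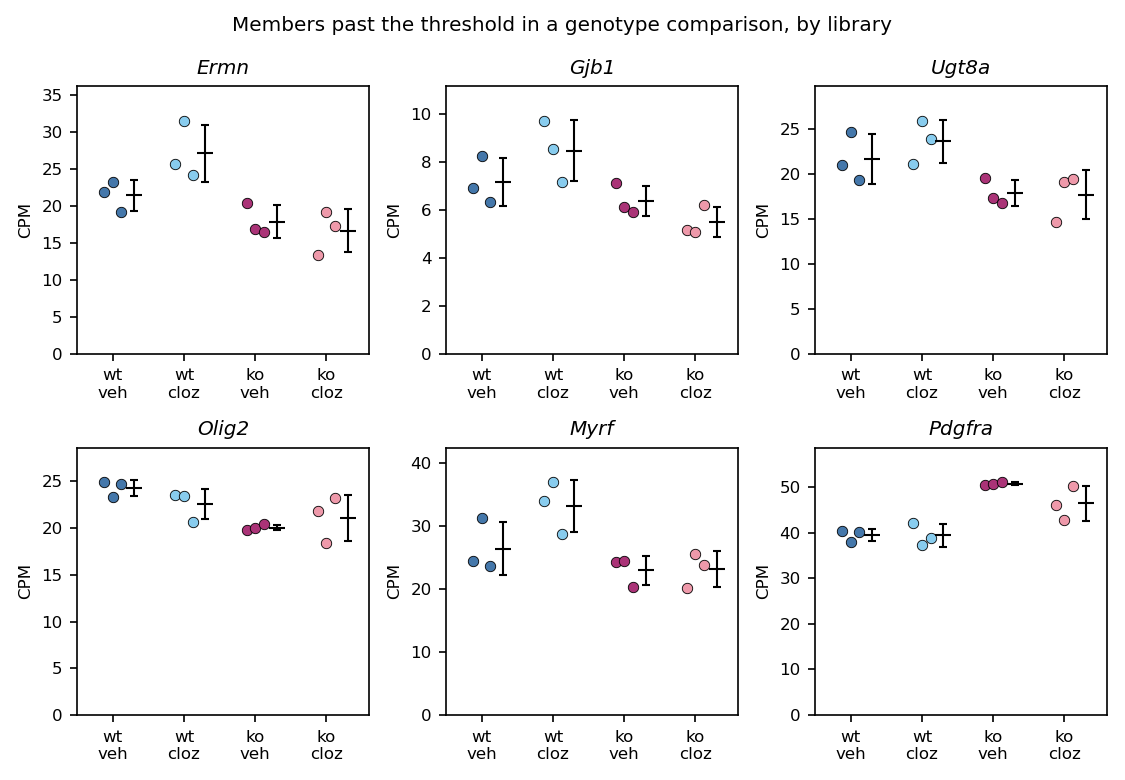
CPM (vertical axis, starting at 0) of the 6 members past the threshold in a genotype comparison, by group (wt, wild type; ko, labelled knockout; veh, vehicle; cloz, clozapine). Points are the 3 libraries of a group in the order of their numbers, and the bar beside them is the mean ± SD. Ermn, Gjb1, Ugt8a and Myrf have their highest group mean in wild-type clozapine, and for Pdgfra all knockout libraries, from 42.8 CPM, lie above all wild-type libraries, up to 42.1 CPM.

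The sequence upstream of the start is shown for the members past the threshold that have a single start in the RefSeq promoter table (GRCm38.p6), since these are the genes whose levels differed between genotypes. Each run is the 250 bases before the RefSeq start, 5′ to 3′ on the gene's strand, and capitals mark matches to 6 short motifs. For Ugt8a and Pdgfra, bases checked after this start were not found in the gene's transcripts in the GENCODE annotation. The Olig2 run ends at 91225549, past the start of the gene in that annotation at 91225457.
Ermn (chr2:58052865-58053114, minus strand): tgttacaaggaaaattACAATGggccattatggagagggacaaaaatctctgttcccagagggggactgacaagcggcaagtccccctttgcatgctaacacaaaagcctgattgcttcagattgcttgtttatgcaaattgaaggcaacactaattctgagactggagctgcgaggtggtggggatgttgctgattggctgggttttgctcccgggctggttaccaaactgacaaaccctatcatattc
Ugt8a (chr3:125938653-125938902, minus strand): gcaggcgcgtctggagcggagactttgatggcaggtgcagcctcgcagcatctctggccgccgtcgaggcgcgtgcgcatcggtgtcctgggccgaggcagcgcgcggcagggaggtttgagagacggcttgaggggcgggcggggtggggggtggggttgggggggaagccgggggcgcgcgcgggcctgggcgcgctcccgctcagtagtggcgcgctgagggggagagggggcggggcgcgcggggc
Olig2 (chr16:91225300-91225549, plus strand): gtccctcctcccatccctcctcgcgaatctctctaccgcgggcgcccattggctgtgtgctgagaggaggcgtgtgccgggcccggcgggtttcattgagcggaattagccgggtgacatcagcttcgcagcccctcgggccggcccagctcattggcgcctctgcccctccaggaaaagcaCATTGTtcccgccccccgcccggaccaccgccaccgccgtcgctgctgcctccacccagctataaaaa
Pdgfra (chr5:75152001-75152250, plus strand): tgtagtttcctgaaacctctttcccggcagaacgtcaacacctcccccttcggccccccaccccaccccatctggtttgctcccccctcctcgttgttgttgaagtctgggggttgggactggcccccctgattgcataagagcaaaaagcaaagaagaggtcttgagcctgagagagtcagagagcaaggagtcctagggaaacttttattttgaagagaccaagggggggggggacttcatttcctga
The motifs, searched on both strands in 300 bases (250 before to 50 after the start), were ACAAAG and ACAATG, which resemble the core bound by SOX factors, CTGGCAC and CTGGTAC, which resemble the MYRF site, and the E-boxes CAGCTG and CATATG, which read the same on both strands and which factors such as OLIG2 can bind. Ermn and Olig2 each had 1 ACAATG, and Ugt8a and Pdgfra had 0 matches. RefSeq windows were found for 21 of the 30 members, 29 windows in all. ACAAAG was in 8 of the 29 windows (18.7% of all 32851 windows), ACAATG in 5 (12.6%), CTGGCAC in 5 (5.01%), CTGGTAC in 1 (2.24%), CAGCTG in 6 (16.3%) and CATATG in 3 (3.91%). Some members had more than 1 window, such as Gjb1 with 4, so windows of a gene are not independent. Counted by gene, the motifs were in 6, 5, 4, 1, 5 and 2 of the 21 members, in the same order. Mobp, which encodes a myelin-associated basic protein, held ACAAAG 6 times in its 1 window. These matches describe letters in a window, not binding.

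The other 24 members did not pass in the averaged genotype comparison. Over all 30 members, the 6 called ones included, 11 were lower and 1 higher at an unadjusted p under 0.05, where 25.5% of all genes passed in either direction. Of the 30, 27 had a log2 difference below 0, with a median of -0.12 over the 20 mature members against -0.00 over all genes tested. Without knockout clozapine 3, 22 of 30 were below 0 and the mature median was -0.08. Mbp was at 676 to 974 CPM in wild type (median 787) and at 542 to 736 CPM in the labelled knockout (median 688), a log2 difference of -0.26 (95% interval -0.47 to -0.06, edgeR adjusted p = 0.098). Mag, which encodes a myelin-axon adhesion protein, had -0.22 (edgeR adjusted p = 0.095), and Fa2h, the enzyme that hydroxylates myelin fatty acids, had -0.25 (edgeR adjusted p = 0.077). DESeq2 also called Mbp and Mag, 8 members in all, where it called 10.7% of all genes. Among the newly formed genes Enpp6 had -0.25 and Bcas1 -0.24, with edgeR adjusted p of 0.45 and 0.25. Trf had -0.24, Hapln2, a link protein of the nodes of Ranvier, -0.21, Mobp -0.15 and Nkx6-2 -0.15 (edgeR adjusted p 0.14, 0.19, 0.47 and 0.30). Mal, a proteolipid of myelin, Aspa, which breaks down N-acetylaspartate, and Gpr37, a receptor of oligodendrocytes, each had -0.12 (edgeR adjusted p 0.49, 0.44 and 0.18).

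Several abundant mature members had averaged differences close to 0. Cldn11, the tight junction protein of myelin, was at 51.3 to 68.1 CPM in wild type and 54.5 to 66.4 CPM in the labelled knockout (-0.01, 95% interval -0.15 to 0.12). Mog, a surface glycoprotein of myelin, was at 18.6 to 23 and 18 to 23.1 CPM, wild type first (-0.01, interval -0.15 to 0.14). The tetraspanin gene Tspan2 had -0.01 (interval -0.18 to 0.16), Cnp -0.09 (-0.23 to 0.06), Gsn, which encodes the actin-severing protein gelsolin, -0.05 (-0.17 to 0.07) and Enpp2 -0.02 (-0.09 to 0.05). For each of these 6 the interval leaves out a fall as large as that of Ermn. Opalin, a membrane protein of oligodendrocytes, had 0.16 (-0.17 to 0.49), Ninj2 -0.04 (-0.50 to 0.41), Gpr17 -0.00 (-0.14 to 0.13), Sox10 -0.02 (-0.19 to 0.16) and Olig1 0.03 (-0.06 to 0.11).

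The genotype difference was then taken under each treatment, with 2 members past the threshold in each. The interaction, given further on, tests whether they differ between treatments. Under vehicle Pdgfra rose (log2 difference 0.36, SE 0.06, edgeR adjusted p = 0.0029) and Olig2 fell (-0.28, SE 0.08, edgeR adjusted p = 0.039), 2 of 30 members. Of all genes 4.01% rose and 5.15% fell, 9.16% in all. The Olig2 call ended in each of the 6 fits that left out a vehicle library (adjusted p 0.074 to 0.12). The 20 mature members had a median of 0.00 under vehicle, with 9 below 0 and 11 above, and 0 passed. With DESeq2 or RLE scaling 11 of the 20 were below 0, and 17 with the replicate number as a block. When library offsets for GC and length were added 15 were below 0, and the mature gene Ugt8a passed as well.

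Under clozapine Ermn (-0.71, SE 0.14, edgeR adjusted p = 0.021) and Gjb1 (-0.63, SE 0.14, edgeR adjusted p = 0.029) fell, 2 of 30 members lower and 0 higher, where 0.515% of all genes fell and 1.48% rose. Ermn means were 27.1 ± 3.88 CPM in wild type and 16.6 ± 2.93 CPM in the labelled knockout, and Gjb1 means 8.46 ± 1.28 and 5.48 ± 0.632 CPM (SD, n = 3 each). All 20 mature members had a log2 difference below 0 (median -0.28), 19 with no filter on low counts, after the length and GC correction or with only the 2 groups fitted, and 17 with the replicate number as a block. For 9 of the 20 the libraries did not overlap, where 10.7% of all genes were separate in this direction. Without knockout clozapine 3 the median was -0.18, 16 of 20 were below 0 and 0 members passed. Without wild-type clozapine 3 the median was -0.28, 16 of 20 were below 0, and again 0 passed. The count also rested on other libraries: 1 member passed without knockout clozapine 5, and 4 without wild-type clozapine 5 or without knockout vehicle 5. The Gjb1 call further ended without wild-type clozapine 2 (adjusted p = 0.091) or knockout clozapine 4 (0.11), and that of Ermn without knockout clozapine 5 (0.061). DESeq2 called 9 members, Ermn, Gjb1, Gpr37, Hapln2, Mag, Mbp, Myrf and Ugt8a lower and Pdgfra higher, where it called 3.24% of all genes. Pdgfra had a log2 difference of 0.24 under clozapine (95% interval 0.10 to 0.37, edgeR adjusted p = 0.068) with separate libraries.

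**Figure D2:**
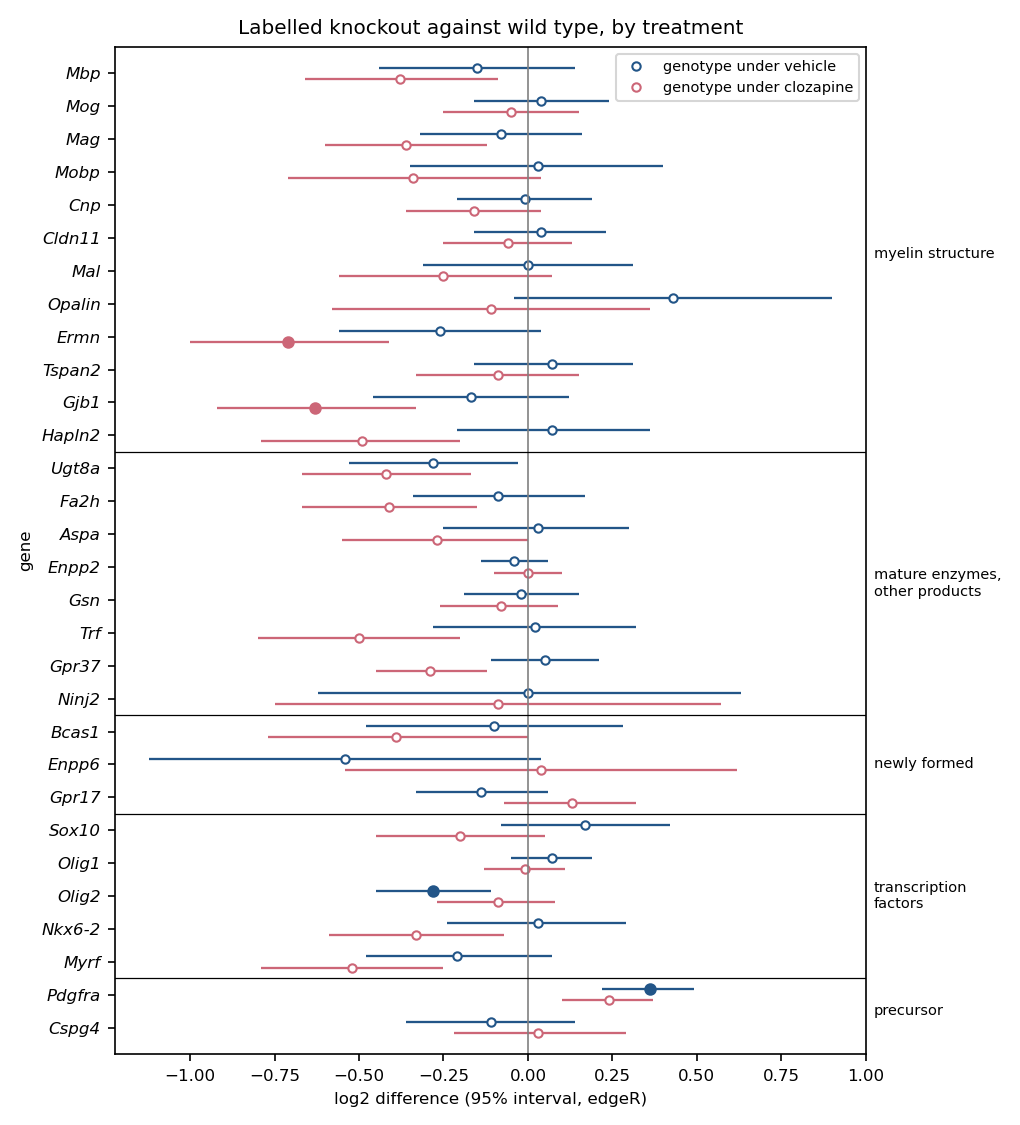
Log2 difference of labelled knockout minus wild type (horizontal axis) with its 95% interval from edgeR for each member (vertical axis), under vehicle (blue) and under clozapine (red); filled points passed at an adjusted p under 0.05. Under clozapine all 20 mature members lie at or below 0 (median -0.28), under vehicle they scatter around 0 (median 0.00), and Pdgfra lies above 0 in both.

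The spread between libraries of 1 group was wide for the mature members. Their median within-group SD of log2(CPM + 0.5) was 0.165, against 0.113 over all genes tested and 0.082 over the 10125 genes with a mean of at least 10 CPM. Enpp2 was the steadiest member at 0.048. Wild-type clozapine 2 and wild-type clozapine 3 were each the highest of the 12 libraries for 8 of the 20 mature members, and knockout clozapine 3 was the lowest for 14. The median deviation of the mature members from their own means was 0.25 in wild-type clozapine 3 and 0.18 in wild-type clozapine 2, and it was -0.27 in knockout clozapine 3. It lay between -0.13 and 0.06 in the other 9 libraries, and those of wild-type clozapine 5 and knockout clozapine 5 were the same, 0.02. The 20 mature genes together made up 2132 and 2043 CPM in wild-type clozapine 2 and 3, 1425 CPM in knockout clozapine 3 and 1601 to 1901 CPM in the others. Pdgfra was at 42.1, 37.3 and 46.1 CPM in wild-type clozapine 2, wild-type clozapine 3 and knockout clozapine 3.

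**Figure D3:**
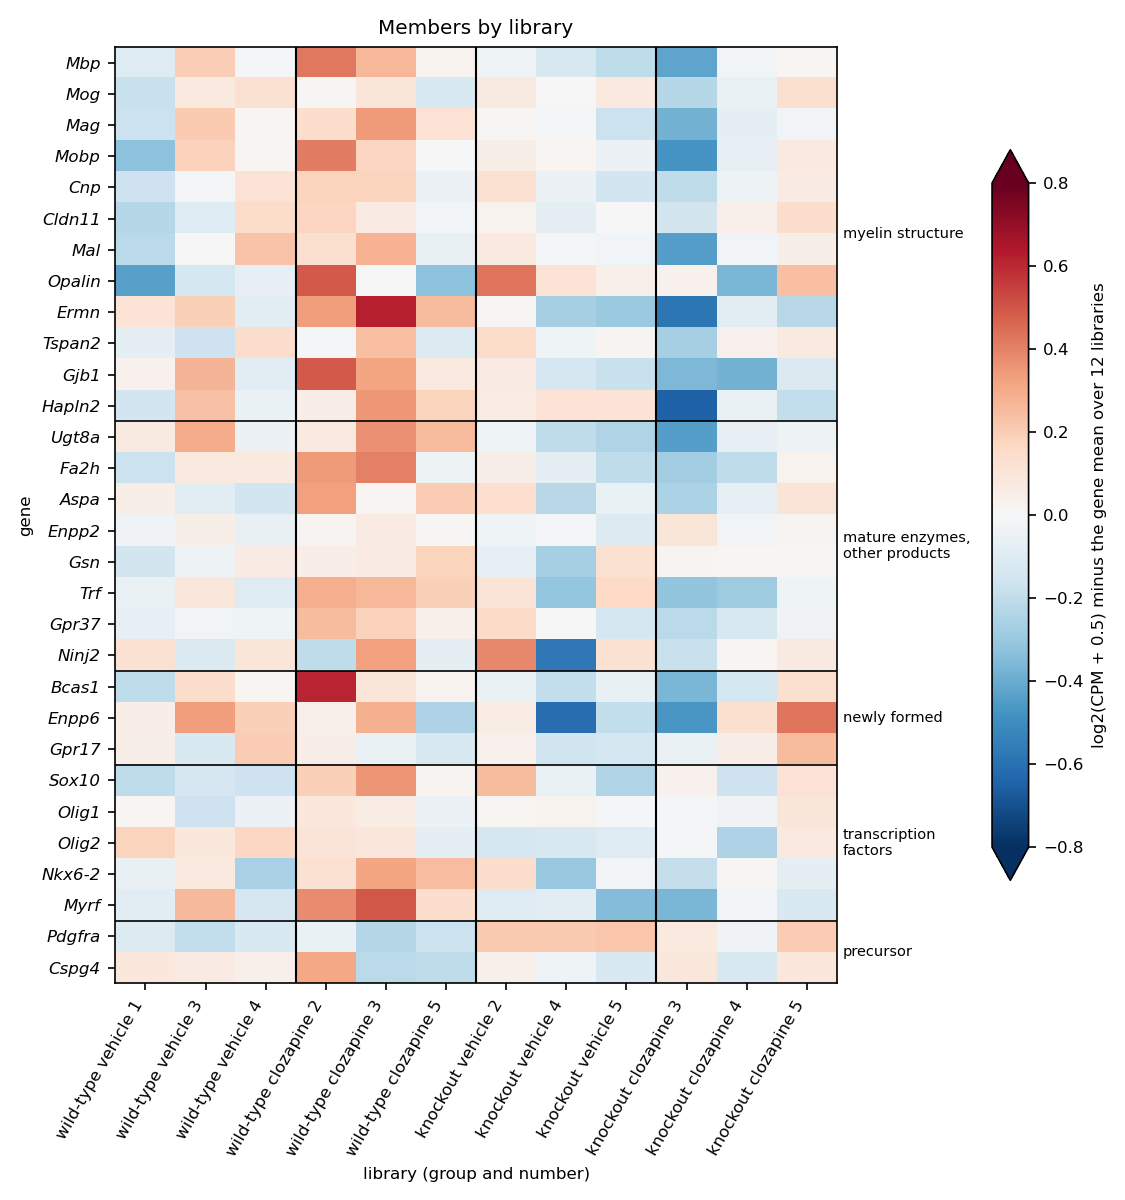
Heat map of log2(CPM + 0.5) minus the gene's own mean over the 12 libraries (colour) for the 30 members (vertical axis, grouped by role) in each library (horizontal axis, grouped by genotype and treatment). Most mature genes are red in wild-type clozapine 2 and 3 and blue in knockout clozapine 3, which was lowest for 14 of 20. Pdgfra is red or near white in the knockout libraries and blue or near white in wild type.

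Whether clozapine changes these genes was asked in each genotype, and 0 of the 30 members passed in either. In wild type 5 members had an unadjusted p under 0.05 (11.6% of all genes did), all higher, and 0 were called by either tool, where edgeR called 0.816% and DESeq2 1.67% of all genes. Sox10, the factor that defines the lineage, was at 21.1, 22.1 and 21.7 CPM with vehicle and 27.8, 31.3 and 24.7 CPM with clozapine, with no overlap. Its log2 change was 0.37 (SE 0.12, 95% interval 0.12 to 0.62, edgeR adjusted p = 0.19). Values for the other 4 were 0.34 for Ermn (edgeR adjusted p = 0.31), 0.33 for Myrf (0.30), 0.32 for Nkx6-2 (0.28) and 0.20 for Gpr37 (0.27). The mature median was 0.18, with 18 of 20 members above 0, and the libraries were separate and higher with clozapine for 5 of the 30, where 7.34% of all genes were. Pdgfra and Cspg4 had -0.01 and -0.08. Of 5 red blood cell markers 0 passed and 2 had an unadjusted p under 0.05. They summed to 138 to 180 CPM in wild-type vehicle libraries and to 212 to 437 CPM in wild-type clozapine libraries, with no overlap for any of the 5 (smallest edgeR adjusted p = 0.33). Their part in the values of the mature members was not tested.

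In the labelled knockout 1 member had an unadjusted p under 0.05 (12.2% of all genes did), and 0 were called by either tool, where edgeR called 0.0231% and DESeq2 1.59% of all genes. That member, Hapln2, was at 14.9, 15.5 and 15.4 CPM with vehicle and 8.94, 13.7 and 12.4 CPM with clozapine (log2 change -0.39, SE 0.14, edgeR adjusted p = 0.26), with no overlap. It and Pdgfra were the 2 of 30 members separate and lower with clozapine, where 8.97% of all genes were. The mature median was -0.10 with 17 of 20 below 0, but 0.01 with 8 of 20 below 0 without knockout clozapine 3, so its direction rests on that library. Newly formed genes had 0.38 for Enpp6, 0.18 for Gpr17 and -0.01 for Bcas1 (edgeR adjusted p 0.64, 0.45 and 0.99). The difference between the changes in the 2 genotypes was tested member by member.

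In this test of the interaction, 0 of 30 members passed, 6 had an unadjusted p under 0.05 (13.6% of all genes did), and DESeq2 also called 0. Of all genes edgeR called 0.654% and DESeq2 2.05%. The 6 were Gpr37 (difference of changes -0.34, edgeR adjusted p = 0.18), Hapln2 (-0.57, 0.21), Trf (-0.52, 0.26), Gjb1 (-0.45, 0.32), Ermn (-0.45, 0.33) and Sox10 (-0.37, 0.35). For 19 of the 20 mature members the difference was below 0, with a median of -0.26, which was -0.14 without knockout clozapine 3. Averaged over genotypes clozapine also gave 0 calls among the members, with 1 at an unadjusted p under 0.05 (11.2% of all genes), Sox10 (log2 change 0.19, edgeR adjusted p = 0.42), and 0 by DESeq2. Of all genes edgeR called 0.150% and DESeq2 0.960%.

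**Figure D4:**
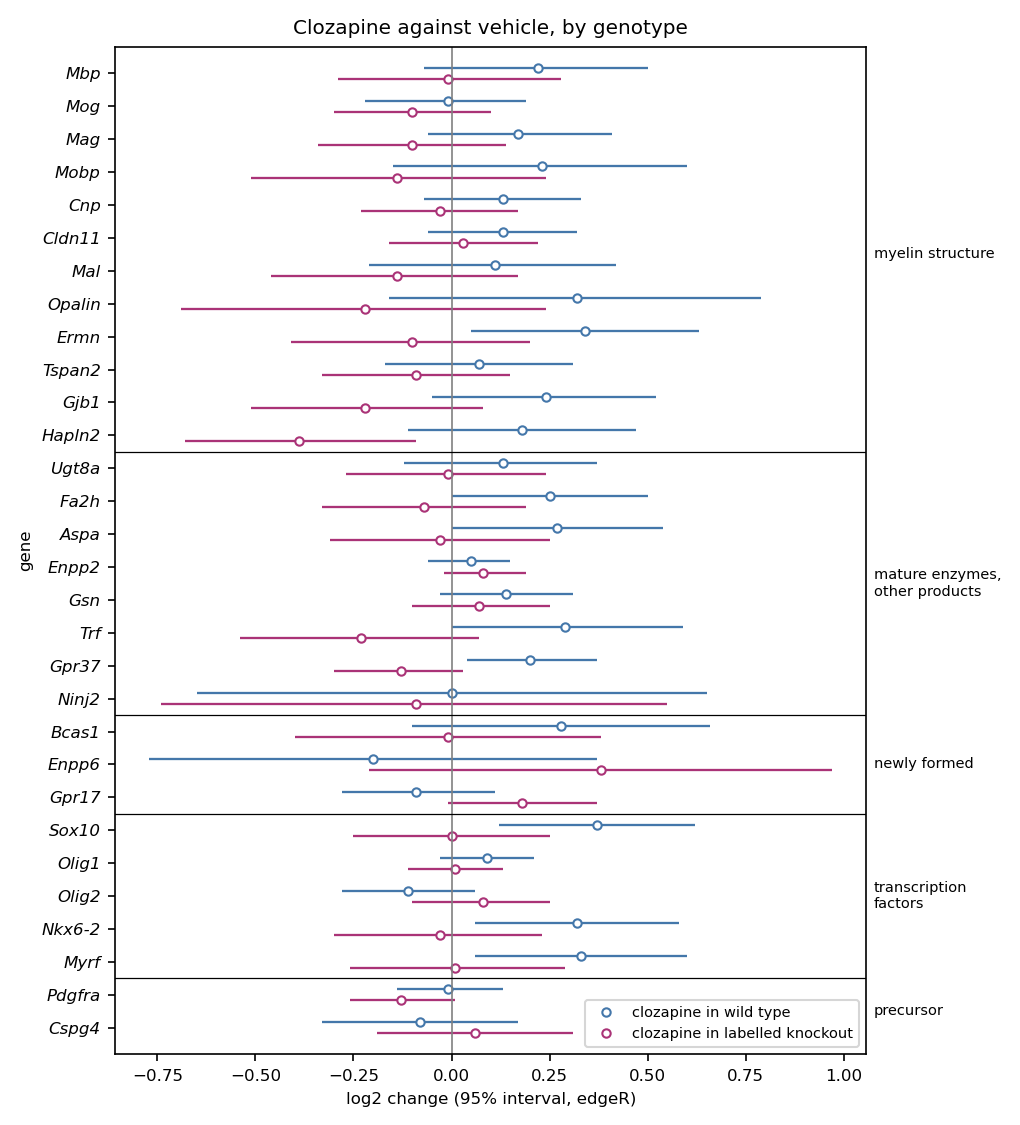
Log2 change with clozapine against vehicle (horizontal axis) with its 95% interval from edgeR for each member (vertical axis), in wild type (blue) and in the labelled knockout (purple); open points did not pass, and 0 of 30 passed in either genotype. In wild type 18 of 20 mature members lie above 0, and in the labelled knockout 17 of 20 lie below 0.

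Other genes of the lineage, taken from lists written with earlier results of these data known, were counted in the averaged genotype comparison, where 10.5% of all genes passed. Of 16 other precursor genes 3 rose and 0 fell (median 0.09). Lhfpl3, a marker of precursors, was at 9.42 to 10.7 CPM in wild type and 11.9 to 14.8 CPM in the labelled knockout, with no overlap (log2 difference 0.36, SE 0.06, edgeR adjusted p = 0.0021). Cacng4, an AMPA receptor auxiliary subunit, rose by 0.29 (SE 0.06, edgeR adjusted p = 0.0062), and Vcan, the matrix proteoglycan versican, by 0.25 (SE 0.07, edgeR adjusted p = 0.033), though Vcan passed in only 5 of the 12 fits that left out a library (highest adjusted p = 0.087). Of 23 other mature genes 3 fell and 0 rose (median -0.12). Among them Plxnb3, a semaphorin receptor, fell by 0.31 (edgeR adjusted p = 0.016), and Cryab, a small heat shock protein, by 0.27 (edgeR adjusted p = 0.032, passing in 5 of the 12 fits, highest 0.082, and not with no filter on low counts).

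Under vehicle, where 4.01% of all genes rose and 5.15% fell, 3 of the 16 other precursor genes rose, again Lhfpl3 (0.44), Vcan (0.34) and Cacng4 (0.28), and 1 fell. Lhfpl3 passed in all 12 fits that left out a library, and Vcan and Cacng4 in 3 each (highest edgeR adjusted p 0.043, 0.16 and 0.21). The call of Vcan also ended with DESeq2 (adjusted p = 0.052) and with only the 2 groups fitted (edgeR adjusted p = 0.069). That of Cacng4 ended with RLE scaling (edgeR adjusted p = 0.053), with the length and GC correction (0.074) and, at the threshold, with only the 2 groups fitted (0.05). Under clozapine, where 1.48% of all genes rose and 0.515% fell, 0 of the 16 passed (3 at an unadjusted p under 0.05), and 1 of the 23 other mature genes fell, Ppp1r14a (-0.44, edgeR adjusted p = 0.035; passing in 8 of the 12 fits, highest 0.18, and not with only the 2 groups fitted). With clozapine against vehicle, edgeR called 0 of the 23 and 0 of the 16 in either genotype, where 4 and 0 had an unadjusted p under 0.05 for wild type, and 3 and 3 for the labelled knockout. Over all genes these shares were 11.6% and 12.2%.

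Markers of other cells were compared beside these results. Pdgfra is also expressed by meningeal fibroblasts, whose 6 markers summed to 120 to 146 CPM in wild-type vehicle and 109 to 172 CPM in knockout vehicle libraries. After clozapine the sums were 111 to 175 CPM in wild type and 144 to 201 CPM in the labelled knockout. In the averaged genotype comparison 0 of the 6 passed (median 0.15, smallest adjusted p = 0.075, for Lum). Their part in the Pdgfra result was not tested. Averaged over treatments, 5.01% of all genes fell and 5.52% rose. There 2 of 6 endothelial markers fell, Tek and Flt1 (median -0.16). The endothelial marker Slco1a4 had 0.20 without passing. Under vehicle, where 4.01% of all genes rose and 5.15% fell, it passed. Its mean there was 34.6 CPM in wild type and 44.2 CPM in the labelled knockout. Of the 6 endothelial markers 1 also fell under vehicle (median -0.16). In the averaged comparison 1 of 6 mural cell markers fell, Rgs5. There 0 of 6 excitatory neuron, 0 of 6 interneuron, 0 of 6 astrocyte and 0 of 6 microglial markers passed. The 6 excitatory neuron markers summed to 8204 to 8482 CPM in wild-type clozapine and 9275 to 9665 CPM in knockout clozapine, the groups between which Ermn and Gjb1 fell, and the marker Camk2a rose there (log2 difference 0.26, edgeR adjusted p = 0.038). In the vehicle groups they summed to 8683 to 9627 CPM in wild type and 8160 to 8923 CPM in the labelled knockout. Their part in the mature gene differences was not tested. The 5 choroid plexus markers summed to 60.2 CPM in wild-type vehicle 3, where Ttr alone was at 53.3 CPM. The highest sums were 4.54 CPM in wild-type clozapine, 10.1 CPM in knockout vehicle and 8.57 CPM in knockout clozapine. Of the 4 tested, 0 passed in the averaged genotype comparison. Whether tissue carried over in that library bears on its mature gene values was not tested.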

How the data were processed

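The deposited table holds estimated counts per gene for 12 libraries, with 7.39% of values not whole. Reads were aligned with STAR 2.5.1b and counted with featureCounts on GRCm38, per the submitters' processing notes; strand use and the sharing of reads between genes are not given in the sources used here. Symbols came from GENCODE mouse release 21. The counts were rounded and fitted in R 4.3.3 with edgeR 4.0.16 (filterByExpr, TMM scaling, robust quasi-likelihood test, 1 mean for each of 4 groups, all 12 libraries sharing the estimate of spread). Of 47069 genes 17286 were tested, with 99.9% of counts, and p-values were adjusted over these by Benjamini-Hochberg at 0.05. CPM uses TMM-scaled library sizes. The averaged contrasts, those within a genotype or treatment, and the interaction share libraries. Alternatives were DESeq2 1.42.0, other scaling, filter, rounding, fit and length and GC settings, a replicate block, and leaving out each library. The test was tried on simulated data. All 30 members are named, with full statistics for those past the threshold. Members and lists were chosen with earlier results of these data known. Some genes of the other lineage lists are counted but not reported by name here.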

Additional observations from a re-analysis of the deposited data

How the results depend on the processing

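Among the members, 0 passed in the clozapine contrasts and the interaction under every alternative run. Under vehicle the count of 2 was 3 after the length and GC correction, which added Ugt8a, and 1 to 2 when a library was left out. Under clozapine the count of 2 was 9 with DESeq2, 7 with no low-count filter, 4 after the length and GC correction, and 0 to 4 when a library was left out. Averaged over treatments the count of 6 was 4 to 8 when a library was left out. The mature median of the interaction, -0.26, was -0.35 to -0.14 when a library was left out. With the replicate number as a block, counts were 0 under vehicle, 0 under clozapine and 2 (Gjb1 and Pdgfra) averaged, the mature median was -0.14 under vehicle in place of 0.00, and the mature median of the interaction was -0.089 with the block. The block also ended calls of other lineage genes. Same-numbered libraries deviated together with r of -0.08 to 0.123 over 10 pairs, 1 of them over 0.1. For differently numbered libraries r was -0.208 to 0.15 over 44 pairs. With so few libraries in a group, these values cannot decide whether a shared number marks a shared batch. The cause of the changes between settings was not tested.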
